A study of Homo sapiens with 9 samples.

Results

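Cadherins are membrane proteins that hold neighbouring cells together through calcium-dependent binding of their extracellular repeats. The classical members bind beta-catenin and p120 catenin inside the cell and so connect the junction to actin, while most protocadherins lack these catenin-binding tails and act mainly in cell recognition in the nervous system. The clustered protocadherins lie in the alpha, beta and gamma arrays of chromosome 5, where each variable exon has a promoter of its own, and most of these promoters carry a conserved element with CGCT at its core.

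The genes described here were those with a symbol CDH followed by a number, or starting with PCDH, that a probe on the array measured through a RefSeq transcript. They were 82 genes (23 CDH and 59 PCDH genes) with 102 probes, out of 34425 gene features and 42405 gene probes. RNA came from A2780 cells, an established line of human ovarian carcinoma, which were left untreated or were given DIG-MSK, an analogue of the C/G-rich DNA binder mithramycin A, at 8 nM or 80 nM for 24 h. Each group held 3 independent cultures with 1 single-colour array each, so that the 2 treated groups shared the same 3 untreated arrays as controls. The 3 arrays with 80 nM were on another slide than the untreated and 8 nM arrays, so that slide and concentration cannot be told apart in any 80 nM value below.

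Levels are processed intensities in percent of the 75th percentile of all gene probes on the same array, and they compare arrays for 1 probe, not one probe with another. Between 25047 and 27459 probes per array were well above background. The line showed keratin and vimentin signal on all 9 arrays (KRT7, KRT8, KRT18 and VIM), while the epithelial markers MUC16 and WT1 were above background on none. Changes are log2 differences of group means with the standard error (SE) of the limma fit over all 9 arrays, and p-values from limma were adjusted by the Benjamini-Hochberg method over 21606 genes. The call of a gene as higher or lower required an adjusted p under 0.05 and a change of at least 1.5-fold or at most 0.67-fold.

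Upstream sequences of 5 genes that fell at 80 nM, from the CDH genes and the non-clustered protocadherins, are shown because DIG-MSK binds C/G-rich DNA. CDH6, CDH15 and PCDH10, which fell as well, have no RefSeq promoter entry. The sequences are the 250 bases before a RefSeq start on GRCh38.p14, 5′ to 3′, with GGGCGG (the GC box, on either strand) in capitals. The CDH2 window is chr18:28177131-28177380 and that of PCDH1 chr5:141869628-141869877. The PCDH19 window is chrX:100410274-100410523, that of CDH10 chr5:24644979-24645228 and that of CDH9 chr5:27038587-27038836, all 5 on the minus strand.
CDH2: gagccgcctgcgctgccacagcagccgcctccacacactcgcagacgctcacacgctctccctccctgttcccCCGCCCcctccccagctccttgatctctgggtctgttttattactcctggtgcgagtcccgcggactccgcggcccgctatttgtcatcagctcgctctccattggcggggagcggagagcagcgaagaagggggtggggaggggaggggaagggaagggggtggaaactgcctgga
PCDH1: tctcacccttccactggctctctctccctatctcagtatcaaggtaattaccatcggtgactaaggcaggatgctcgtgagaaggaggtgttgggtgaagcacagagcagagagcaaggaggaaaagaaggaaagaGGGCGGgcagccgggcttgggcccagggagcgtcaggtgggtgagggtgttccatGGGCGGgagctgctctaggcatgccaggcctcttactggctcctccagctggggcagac
PCDH19: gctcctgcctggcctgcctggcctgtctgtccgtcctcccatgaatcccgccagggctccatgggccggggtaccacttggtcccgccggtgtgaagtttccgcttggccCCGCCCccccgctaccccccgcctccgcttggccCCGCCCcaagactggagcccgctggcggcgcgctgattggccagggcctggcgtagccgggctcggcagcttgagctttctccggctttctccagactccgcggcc
CDH10: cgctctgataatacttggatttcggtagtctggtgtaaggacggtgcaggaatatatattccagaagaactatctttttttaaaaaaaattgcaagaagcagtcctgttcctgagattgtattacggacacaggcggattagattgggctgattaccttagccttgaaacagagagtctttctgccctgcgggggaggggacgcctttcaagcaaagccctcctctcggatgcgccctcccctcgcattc
CDH9: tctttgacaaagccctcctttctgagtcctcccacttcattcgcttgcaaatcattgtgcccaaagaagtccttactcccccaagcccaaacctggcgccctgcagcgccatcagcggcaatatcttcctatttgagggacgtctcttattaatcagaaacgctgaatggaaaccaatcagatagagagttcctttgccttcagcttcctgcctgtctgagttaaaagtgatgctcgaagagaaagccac
The first 3 windows held 1, 2 and 2 GC boxes and had a G+C content of 66.0%, 59.2% and 72.0%. The windows of CDH10 and CDH9 held none, at 47.6% and 48.4%. CDH2 has another start in the table, whose window, chr18:28036642-28036891, is not shown and held no GC box, with a G+C content of 42%.

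The next 3 windows belong to clustered protocadherins that rose at 80 nM, and here the capitals mark CGCT on either strand. The PCDHB14 window is chr5:141223093-141223342, that of PCDHGA8 chr5:141392383-141392632 and that of PCDHA11 chr5:140868707-140868956, all on the plus strand.
PCDHB14: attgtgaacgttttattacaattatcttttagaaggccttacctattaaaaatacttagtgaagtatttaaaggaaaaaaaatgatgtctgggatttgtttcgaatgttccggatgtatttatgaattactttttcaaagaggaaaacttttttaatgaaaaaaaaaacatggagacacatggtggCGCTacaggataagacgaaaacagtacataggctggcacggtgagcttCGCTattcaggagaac
PCDHGA8: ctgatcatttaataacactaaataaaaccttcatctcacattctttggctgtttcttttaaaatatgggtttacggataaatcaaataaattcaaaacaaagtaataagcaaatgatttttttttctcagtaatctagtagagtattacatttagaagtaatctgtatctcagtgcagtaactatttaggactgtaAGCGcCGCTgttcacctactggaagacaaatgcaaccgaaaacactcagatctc
PCDHA11: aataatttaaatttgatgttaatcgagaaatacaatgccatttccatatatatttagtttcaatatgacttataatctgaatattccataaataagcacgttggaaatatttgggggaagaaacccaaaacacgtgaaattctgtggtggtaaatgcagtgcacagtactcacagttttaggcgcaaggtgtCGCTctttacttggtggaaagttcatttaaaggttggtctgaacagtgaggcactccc
These windows held 2, 2 and 1 copies of CGCT, no GC box, and a G+C content of 33.6%, 32.0% and 36.0%.

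Of the 82 genes, 63 had at least 1 window of 300 bases (250 before and 50 after the start), 82 windows in all. GGGCGG stood in 15.9% of these windows, against 45.0% of the 35116 windows of all genes. It was present in 4 of 10 windows of genes that fell at 80 nM, in 1 of 8 windows of genes that rose and in 2 of 19 windows of tested genes that were not called. By subfamily, it stood in 4.55% of windows of clustered protocadherins and in 28.9% of those of CDH genes and non-clustered protocadherins. The sequences printed above are a choice in which direction and subfamily go together. Not printed are clustered genes that fell, such as PCDHB8 (40.4% G+C, no GC box) and PCDHGC4, which has a window with 2 GC boxes (63.2% G+C). CDH12, which rose and has a window with a GC box, is not printed either. CGCT stood in 97.7% of the 44 windows of clustered protocadherins and in 70.0% of all windows, and CACCTG, the E-box of SNAI and ZEB repressors, in 9.76% of the family's windows and 20.6% of all. These counts are descriptions of the letters in the windows, both strands were searched, and no binding was measured here.

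Most of the family was close to background in A2780. Of the 82 genes, 38 were tested, because a probe of theirs was well above background on each array of 1 group or more, and 31 of these were above background on all 9 arrays. Among the other 44 genes, 27 were above background on no array and 17 on some. CDH1, the E-cadherin of epithelia, was above background on no array, with levels of at most 0.865%. CDH11, a type II cadherin of mesenchymal cells, was likewise above background on none, with levels between 0.557% and 2.10%. Of the clustered genes 19 of 46 were tested, 5 of 15 in the alpha, 8 of 15 in the beta and 6 of 16 in the gamma array, beside 13 of 23 CDH genes and 6 of 13 non-clustered protocadherins.

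At 80 nM, the N-cadherin gene, CDH15, several type II cadherins, 3 non-clustered protocadherins and 3 clustered protocadherins fell. Another 4 clustered protocadherins and 4 other cadherins rose. In all, 8 of the 38 tested genes (21.1%) were called higher and 11 (28.9%) lower, where 18.4% and 16.1% of all genes tested were called (34.5% in either direction). The median log2 change of the 38 genes was 0.09, and that of all genes was 0.08. With probes scaled to the spike-in controls, which moved the median of all genes to -0.20, the counts were 2 higher (PCDHB14 and PCDHGA8) and 12 lower. With normexp background correction, 4 genes remained called higher (CDH12, PCDHA11, PCDHB14 and PCDHGA8) and 5 lower (CDH2, CDH6, CDH10, PCDH1 and PCDH19). Over all 21606 genes tested, the spike-in scaling called 1632 higher and 4591 lower, and normexp 2283 and 2371. The 80 nM arrays stood above all untreated arrays in 14 of the 38 genes and below all in 12, where 40.1% and 31.6% of all genes did so. Of the 31 genes above background on all 9 arrays, 8 were called higher and 8 lower. With only such probes tested the counts were again 8 and 8, where 3181 and 2591 of 18644 genes were called. CDH6, CDH15 and PCDHB16, called lower, had passed the filter only through the untreated and 8 nM groups, where they were higher.

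**Figure D1:**
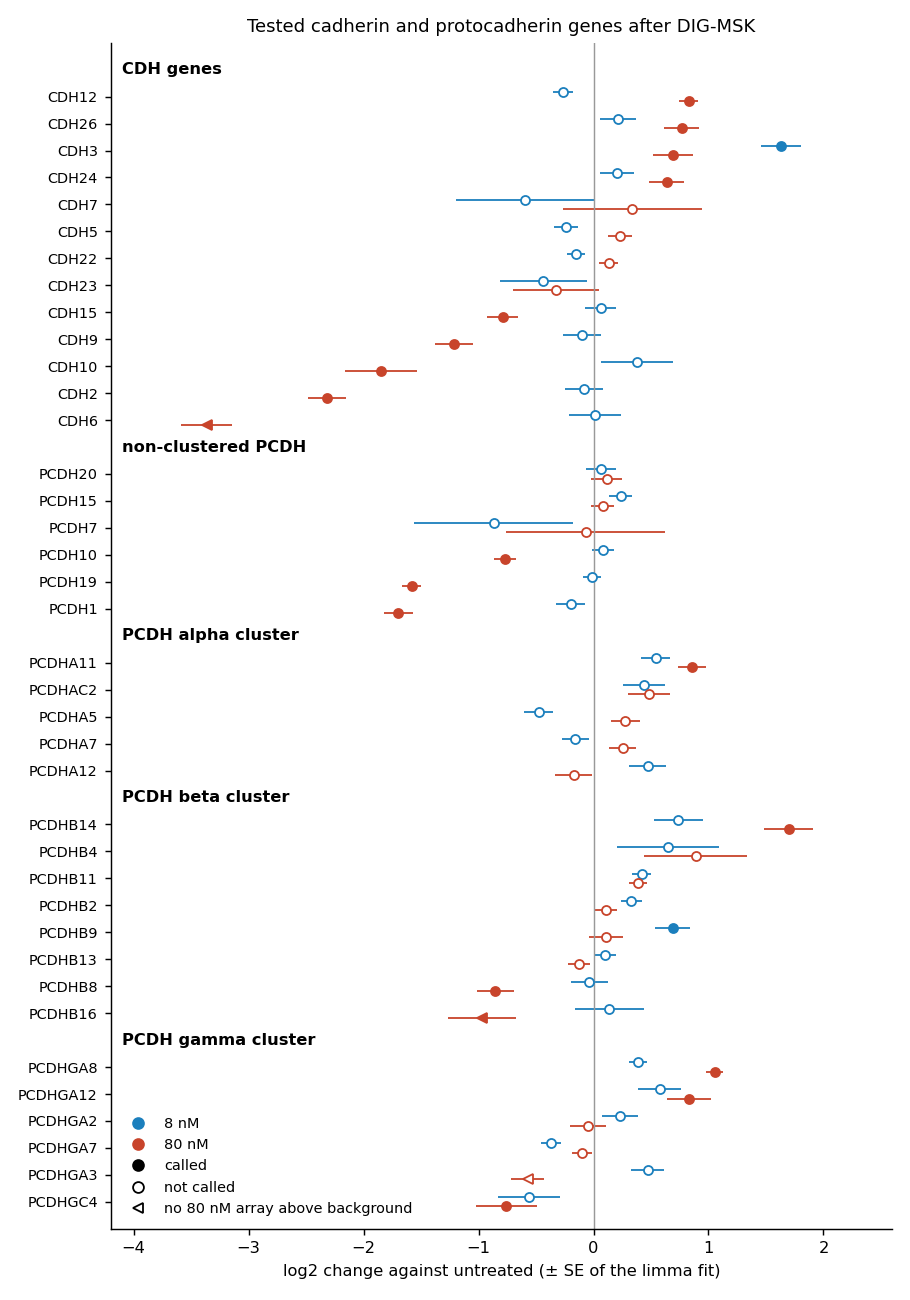
Log2 change of the 38 tested genes at 8 nM (blue) and 80 nM (red) against untreated (x axis), with bars of ± 1 SE of the limma fit (3 arrays per group), by subfamily and ordered by the change at 80 nM. Filled symbols were called; triangles mark the genes with no 80 nM array above background (CDH6, PCDHB16 and PCDHGA3), whose position is an estimate and whose bound is in the text. CDH6 and CDH2 lie farthest to the left at 80 nM and PCDHB14 farthest to the right, whereas CDH3 is the point farthest to the right at 8 nM.

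Among the classical type I cadherins, CDH2 (N-cadherin, NM_001792, chromosome 18), which joins mesenchymal and neural cells, fell at 80 nM. Its levels were 202%, 180.3% and 157% on the untreated arrays, 160.5%, 202% and 149% at 8 nM, and 43.9%, 32.3% and 32.6% at 80 nM. The untreated and 8 nM arrays overlapped, and every 80 nM array was below all of them. The level at 80 nM was 4.98-fold lower than in untreated cells (log2 change -2.32 ± 0.16, SE; adjusted p = 8.0e-06), and at 8 nM the log2 change was -0.08 ± 0.16 (adjusted p = 0.765). A second CDH2 probe gave -2.65 at 80 nM and -0.24 at 8 nM. The RNA of bulk cultures was measured, so that fewer cells with CDH2 RNA and less CDH2 RNA per cell cannot be told apart, here and for the genes below.

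CDH3 (P-cadherin, NM_001793, chromosome 16), the classical cadherin of basal epithelial layers, was called higher at both concentrations, the only such gene of the 38. Its levels were 3.08%, 4.63% and 3.13% in untreated cells, 9.32%, 12.2% and 11.6% at 8 nM, and 5.97%, 6.04% and 5.21% at 80 nM. The 3 groups did not overlap, and the 8 nM arrays were the highest. The gene rose 3.09-fold at 8 nM (log2 change 1.63 ± 0.17; adjusted p = 0.00094) and 1.61-fold at 80 nM (0.69 ± 0.17; adjusted p = 0.0089). The difference of 80 nM from 8 nM was itself past the threshold, at -0.94 ± 0.17 (adjusted p = 0.0019). With normexp the log2 change was 0.57 at 8 nM (adjusted p = 0.0044), just under the fold limit, and 0.25 at 80 nM (adjusted p = 0.0511). The difference between concentrations was then -0.32 (adjusted p = 0.0187), and -0.50 with the authors' log2 values (adjusted p = 0.0018), both short of the fold limit.

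The type II cadherins, which share the catenin-binding tail but pair with partners of their own class, moved in both directions at 80 nM. CDH6 (K-cadherin, NM_004932, chromosome 5), a cadherin of the developing kidney, was at 5.32%, 6.94% and 7.14% in untreated cells and at 4.56%, 7.38% and 8.03% at 8 nM. On the 80 nM arrays its probe was at 0.598%, 0.546% and 0.739% and not above background on any. The gene was thus at least 3.66-fold lower at 80 nM than in untreated cells (adjusted p = 5.7e-06), the bound being the untreated mean over, on each 80 nM array, the lowest signal above background or the signal of the probe itself, whichever was higher.

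CDH10 and CDH9, type II cadherins of the brain from a run of cadherin genes on chromosome 5, fell as well. CDH10 (NM_006727) was at 44.5%, 23.6% and 19.0% in untreated cells, at 46.5%, 30.1% and 31.5% at 8 nM, and at 6.44%, 7.14% and 9.28% at 80 nM. CDH9 (NM_016279) was at 13.9%, 13.8% and 11.5%, at 9.69%, 13.6% and 13.6%, and at 6.58%, 5.46% and 4.96% in the same order. Both had every 80 nM array below all other arrays, and CDH10 spread more among its untreated arrays than CDH9. The log2 change at 80 nM was -1.85 ± 0.31 for CDH10 (adjusted p = 0.0011) and -1.21 ± 0.16 for CDH9 (adjusted p = 0.00032). CDH15 (M-cadherin of muscle) fell by 0.79 on the log2 scale, to levels between 2.86% and 3.39%, with 2 of 3 arrays above background at 80 nM.

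CDH12, CDH24 and CDH26 rose at 80 nM. CDH12 (NM_004061), another type II cadherin of chromosome 5, was at 28.2%, 28.3% and 25.5% in untreated cells, at 22.3%, 24.8% and 21.3% at 8 nM, and at 49.3%, 46.9% and 49.2% at 80 nM. Its 8 nM arrays were all below and its 80 nM arrays all above the untreated ones, and the log2 changes were -0.26 ± 0.08 (adjusted p = 0.0797) and 0.83 ± 0.08 (adjusted p = 6.6e-05). Between 80 nM and 8 nM the change of CDH12 was 1.09 ± 0.08 (adjusted p = 1.5e-05). CDH24 rose from between 36.8% and 53.8% to between 67.1% and 78.9% (log2 change 0.64 ± 0.15), and CDH26 from between 5.80% and 8.20% to between 10.6% and 12.3% (0.77 ± 0.15). The call of CDH24 was lost without untreated replicate 1 or 80 nM replicate 1. CDH22, a type II cadherin of the brain, ranged from 1129% to 1197% in untreated cells, from 962% to 1130.2% at 8 nM and from 1224% to 1288% at 80 nM, and it was not called (log2 change 0.13 ± 0.08 at 80 nM). CDH5, the VE-cadherin of endothelial junctions, and CDH7 were not called either, with 0.23 ± 0.10 and 0.34 ± 0.60.

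**Figure D2:**
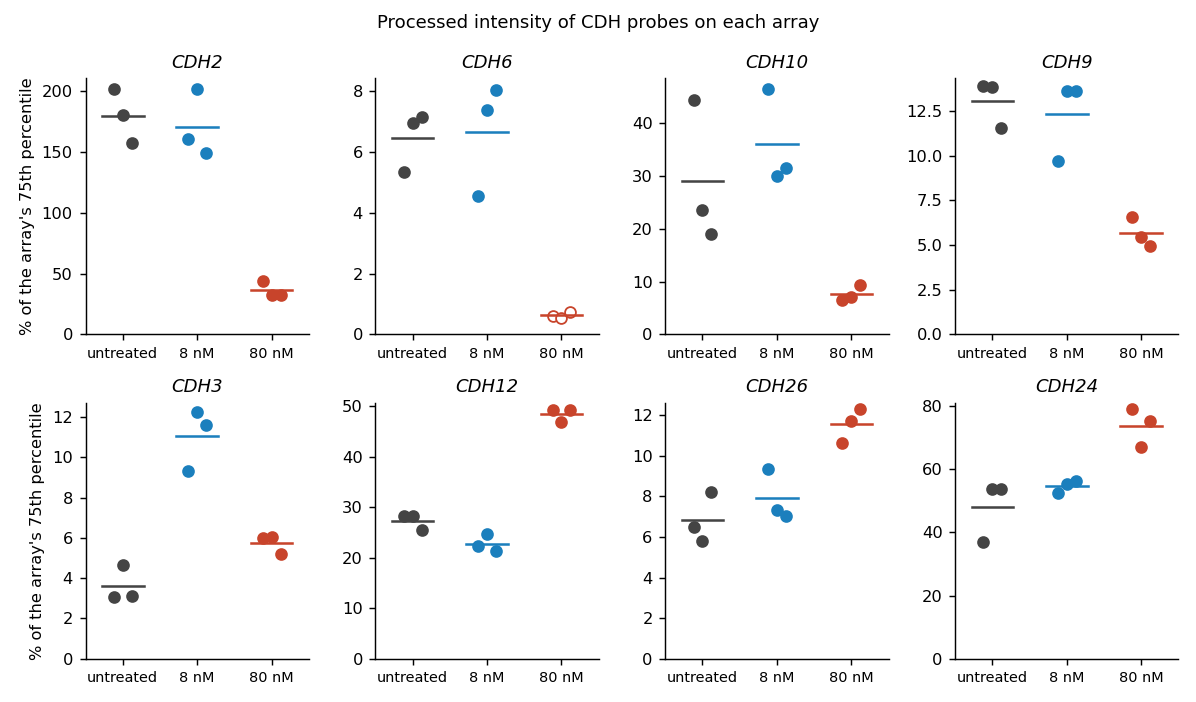
Processed intensity of 8 CDH genes in percent of the 75th percentile of each array (y axis, from 0 in each panel) in untreated cells and at 8 nM and 80 nM; each point is 1 array and the line is the mean of 3. Open points mark a group in which no array was above background, which is the 80 nM group of CDH6. The 80 nM arrays of CDH2, CDH6, CDH10 and CDH9 lie below all others, those of CDH12, CDH26 and CDH24 above all others, and those of CDH3 between the untreated and the 8 nM arrays.

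Of the 6 non-clustered protocadherins tested, PCDH1, PCDH19 and PCDH10 were called lower at 80 nM and none higher, where 16.1% and 18.4% of all genes were called. These were also the 3 with an unadjusted p under 0.05, which 13516 of all 21606 genes had. PCDH1 (NM_002587, chromosome 5), which is found at contacts of airway epithelium, was at 239.9%, 238% and 233% in untreated cells, at 189.6%, 255% and 182% at 8 nM, and at 73.8%, 76.3% and 69.4% at 80 nM. PCDH19 (NM_020766, X chromosome), a protocadherin of neurons whose mutations cause epilepsy, was at 72.4%, 79.4% and 80.1%, at 74.2%, 77.3% and 78.8%, and at 27.3%, 25.7% and 24.4%. PCDH10 (NM_032961, chromosome 4), of the same delta class, was at 33.9%, 34.7% and 30.8%, at 36.3%, 31.4% and 37.5%, and at 18.3%, 19.4% and 20.7%. In all 3 genes the 8 nM arrays overlapped the untreated arrays and the 80 nM arrays did not.

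PCDH1 was 3.24-fold lower at 80 nM than in untreated cells (log2 change -1.70 ± 0.13; adjusted p = 1.0e-05). PCDH19 was 3.00-fold lower (-1.58 ± 0.08; adjusted p = 1.1e-06) and PCDH10 1.70-fold lower (-0.77 ± 0.10; adjusted p = 0.00021). At 8 nM their log2 changes were -0.20, -0.01 and 0.08, and none was called. PCDH7, PCDH15 and PCDH20 were not called at either concentration, and PCDH7 varied widely among the untreated arrays (10.4%, 4.67% and 43.0%).

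**Figure D3:**
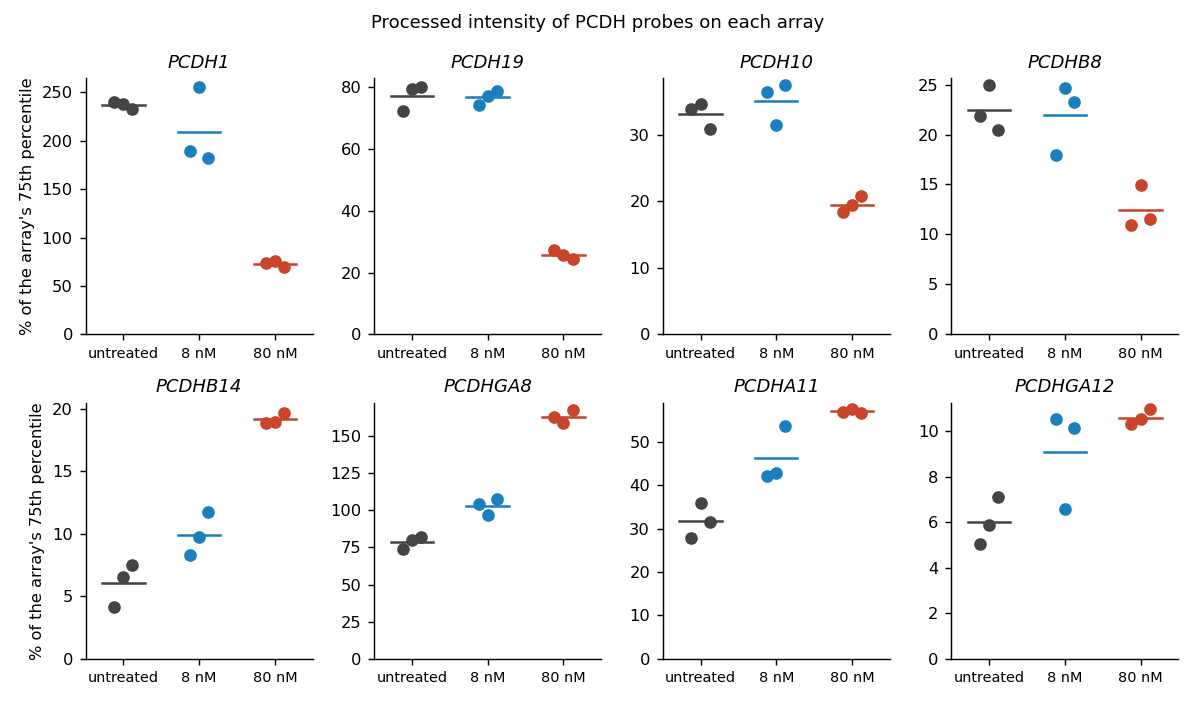
Processed intensity of 8 PCDH genes in percent of the 75th percentile of each array (y axis, from 0 in each panel), drawn as 1 point per array with the mean of 3 as a line. In the upper row (PCDH1, PCDH19, PCDH10 and PCDHB8) the 80 nM arrays lie below all others; in the lower row (PCDHB14, PCDHGA8, PCDHA11 and PCDHGA12) they lie above all untreated arrays.

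Among the clustered protocadherins, 19 of 46 genes were tested, and at 80 nM 4 were called higher and 3 lower. These were 21.1% and 15.8% of the tested genes, close to the 18.4% and 16.1% of all genes. PCDHB14 (NM_018934), of the beta array, was at 4.15%, 6.58% and 7.52% in untreated cells, at 8.33%, 9.75% and 11.7% at 8 nM, and at 18.9%, 18.9% and 19.7% at 80 nM. PCDHGA8 (NM_032088), of the gamma array, was at 73.8%, 80.3% and 82.1%, at 104%, 96.9% and 108%, and at 163%, 159% and 168%. In both genes the 3 groups were separate and in the order of concentration. PCDHB14 rose 3.24-fold at 80 nM (log2 change 1.70 ± 0.21; adjusted p = 0.00021) and was at 0.74 ± 0.21 at 8 nM (adjusted p = 0.0572). PCDHGA8 rose 2.07-fold (1.05 ± 0.08; adjusted p = 1.0e-05), and its 8 nM change of 0.39 ± 0.08 (adjusted p = 0.0157) was 1.31-fold and so under the fold limit. Both were also higher at 80 nM than at 8 nM, by 0.96 ± 0.21 and 0.66 ± 0.08.

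PCDHA11 (NM_018902), of the alpha array, was at 27.8%, 35.9% and 31.6% in untreated cells, at 42.2%, 42.8% and 53.7% at 8 nM, and at 56.9%, 57.5% and 56.8% at 80 nM. PCDHGA12 (NM_032094) was at 5.06%, 5.89% and 7.10%, at 10.5%, 6.57% and 10.1%, and at 10.3%, 10.5% and 10.9%. Both rose at 80 nM, by 0.85 ± 0.12 (adjusted p = 0.00046) and 0.83 ± 0.19 (adjusted p = 0.0055), and neither was called between 80 nM and 8 nM. At 8 nM PCDHA11 was at 0.54 ± 0.12 (1.45-fold; adjusted p = 0.0254) and PCDHGA12 at 0.58 ± 0.19 (adjusted p = 0.0855).

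Other clustered genes fell at 80 nM. PCDHB8 (NM_019120) was at 21.9%, 24.9% and 20.4% in untreated cells, at 17.9%, 24.7% and 23.3% at 8 nM, and at 10.9%, 14.9% and 11.6% at 80 nM, a log2 change of -0.85 ± 0.16 (adjusted p = 0.0020). PCDHGC4 was at 11.2%, 10.4% and 9.37% in untreated cells and at 5.52%, 9.31% and 4.40% at 80 nM (-0.76 ± 0.27; adjusted p = 0.0381), with 1 of the treated arrays close to the untreated ones; its call was lost without any 1 of the untreated arrays, 8 nM replicate 3, or 80 nM replicate 1 or 3. PCDHB16 was between 3.01% and 6.57% in untreated cells and above background on no 80 nM array. Its own signals there (2.67%, 2.06% and 2.23%) set the bound, 1.96-fold lower. This bound equals the fitted change (log2 change -0.97 ± 0.30; adjusted p = 0.0219), so it is an estimate and not a firm minimum. The call was lost without untreated replicate 2 or 3 or 80 nM replicate 2 or 3. It was also lost with normexp and with the authors' log2 values. PCDHGA3 was also above background on no 80 nM array, at least 1.30-fold below untreated cells and at least 1.79-fold below the 8 nM group (adjusted p = 0.00038 for the latter). The variable exons of a cluster are much alike, and alpha and gamma transcripts share their last exons, so that a probe may bind RNA of more than 1 member and the values of single clustered genes are uncertain.

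At 8 nM the family moved less. CDH3 and PCDHB9 were called higher (2 of 38 tested genes, 5.26%, where 3.72% of all genes tested were called higher and 5.2% in either direction), and no gene was called lower by limma (1.48% of all genes). At an unadjusted p under 0.05 there were 12 genes above and 4 below zero (13.8% and 15.9% of all genes), and the 8 nM arrays stood above all untreated arrays in 11 genes and below all in 6 (15.3% and 18% of all genes). PCDHB9 (NM_019119) was at 7.89%, 10.2% and 8.77% in untreated cells, at 11.6%, 16.7% and 15.3% at 8 nM, and at 9.52%, 10.2% and 9.09% at 80 nM. Its 8 nM arrays stood above all untreated arrays and its 80 nM arrays among them. The gene rose 1.61-fold at 8 nM (log2 change 0.69 ± 0.15; adjusted p = 0.0218), but the call was lost without untreated replicate 1 or 3 or without 8 nM replicate 2 or 3. At 80 nM PCDHB9 was at 0.11 ± 0.15 (adjusted p = 0.565) and below the 8 nM level by -0.58 ± 0.15 (adjusted p = 0.0102).

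Of the 19 tested clustered genes, 14 had a log2 change above 0 at 8 nM, with a median of 0.39. Of all 21606 genes 9082 did, with a median of -0.06. Only PCDHB9 of the 19 (5.26%) was called higher, against 3.72% of all genes. As a probe may bind RNA of more than 1 clustered gene, the 19 values may not be independent. The 3 arrays had medians of 0.44 (alpha, 5 genes), 0.37 (beta, 8 genes) and 0.31 (gamma, 6 genes), and the 13 CDH genes one of -0.08. At 80 nM the median of the same 19 genes was 0.11. PCDHA5 went the other way at 8 nM, from 9.86%, 7.29% and 8.24% to 5.94%, 5.55% and 6.65% (log2 change -0.48 ± 0.13; adjusted p = 0.0438), 1.39-fold lower and so under the fold limit. At 80 nM PCDHA5 was at 9.58%, 11.1% and 9.88%, above its 8 nM level by 0.75 ± 0.13 (adjusted p = 0.0012).

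Between the 2 concentrations, 4 genes were called higher at 80 nM (CDH12, PCDHB14, PCDHA5 and PCDHGA8) and 14 lower, 10.5% and 36.8% of the 38 tested genes, where 18.9% and 14.1% of all genes were called (32.9% in either direction). With the spike-in scaling 1 was called higher and 14 lower. CDH2 and CDH10 had the lowest changes among genes measured on all arrays (-2.23 ± 0.16 and -2.23 ± 0.31), followed by PCDH19 (-1.57 ± 0.08). The 14 genes were 6 CDH genes, 3 non-clustered protocadherins and 5 clustered ones. Among them, CDH6, CDH15, PCDHB16 and PCDHGA3 had passed the filter only through the untreated and 8 nM groups, where they were higher. Of the 31 genes above background on all 9 arrays, 4 were called higher and 10 lower (12.9% and 32.3%). The arrays did not overlap between 80 nM and 8 nM in 11 tested genes that were higher and 17 that were lower, where 38.5% and 25.3% of all genes did not overlap in those directions.

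For 7 genes, 2 probes passed the filter. In CDH2, PCDH10 and PCDH19 both probes were called lower at 80 nM, and the second probe was at -2.65 in CDH2 and -0.97 in PCDH10. The second PCDH19 probe was above background on no 80 nM array, with 1.30%, 0.979% and 0.775% there, and so at least 3.13-fold lower than in untreated cells. It had passed the filter only through the untreated and 8 nM groups, where it was higher. In CDH23 and PCDH15, partners in the tip links of hair cells, the probes disagreed. The CDH23 probe for NM_052836 was at -0.33 and not called, and that for NM_022124 was above background on no 80 nM array and at least 2.08-fold lower (adjusted p = 0.0023 over all probes). Both had passed the filter only through the untreated group, in which the probe for NM_022124 was highest. The PCDH15 probe for NM_001142770 was at 0.08 and that for NM_001142771 at 1.32 (adjusted p = 0.00011 over all probes), with levels of 2.93%, 3.38% and 3.73% in untreated cells and 7.797%, 8.23% and 9.02% at 80 nM. The probe for NM_001142771 had passed the filter only through the 80 nM group, where it was highest. The probes of each of these genes were designed for different RefSeq transcripts, and whether the transcripts changed differently was not tested. The probes of PCDHGA7, both for NM_032087, were at -0.37 (adjusted p = 0.032 over all probes) and -0.02 at 8 nM, and at -0.10 and 0.36 (adjusted p = 0.0127 over all probes) at 80 nM, and neither was called. Those of PCDHB2 were at 0.33 and 0.36 at 8 nM and at 0.11 and -0.04 at 80 nM, also not called. Second probes of PCDH1, PCDHA11, PCDHGA8 and PCDHGC4 did not pass the filter and did not move with the probe used. That of PCDH1 ranged from 1.92% to 3.61% in untreated cells and from 2.82% to 3.52% at 80 nM. For PCDHA11 the ranges were 2.27% to 3.65% and 0.980% to 2.25%, with no 80 nM array above background. For PCDHGC4 they were 0.563% to 1.46% and 1.53% to 3.27%, with 1 array above background. That of PCDHGA8 was above background on no array.

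**Figure D4:**
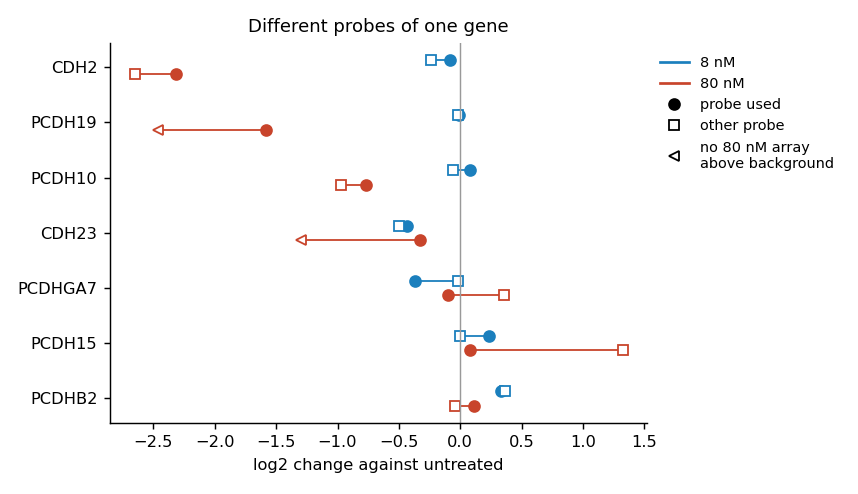
Log2 change against untreated (x axis) at 8 nM (blue) and 80 nM (red) for the 7 genes with 2 probes past the filter; filled circles are the probe used for the gene, open squares the other probe, and a line joins them. Triangles mark the probes of PCDH19 and CDH23 with no 80 nM array above background, whose position is an estimate. The pairs of CDH2, PCDH19 and PCDH10 lie on the same side at 80 nM, while those of CDH23 and PCDH15 lie far apart.

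Genes that work with cadherins were taken from fixed lists, which were not tested as sets. At 80 nM, 18.4% of all genes tested were called higher and 16.1% lower. The shares were 20% and 40% of catenins and plakophilins, 9.09% and 27.3% of other superfamily genes, and 41.2% and 5.88% of proteases and linkers. They were 18.2% and 36.4% of epithelial-mesenchymal factors and 5.56% and 22.2% of chromatin regulators. Mesenchymal markers had 33.3% and 41.7%, and epithelial markers 11.1% and 11.1%. Of the catenins and plakophilins, which anchor cadherin tails, 10 of 14 were tested, and at 80 nM 2 were called higher and 4 lower. CTNND1 (p120 catenin, which keeps cadherins at the membrane) rose from 40.5%, 50.8% and 53.4% to 122%, 141% and 135%, 2.77-fold (adjusted p = 2.3e-05). CTNNB1 (beta-catenin) rose from 945%, 1023% and 1052% to 1480.2%, 1548% and 1620.3%, 1.54-fold (adjusted p = 0.0105). CTNNA1 (alpha-catenin), which links beta-catenin to actin, was at 0.35 ± 0.10 and under the fold limit. JUP (plakoglobin, of adherens junctions and desmosomes) fell from 315%, 392% and 386% to 227%, 235% and 231%, 1.57-fold. ARVCF, a p120 relative, fell 6.82-fold (log2 change -2.77 ± 0.17), and CTNNA2, the neuronal alpha-catenin, was above background on no 80 nM array and at least 7.27-fold lower. At 8 nM none of the 10 was called, and 5 had an unadjusted p under 0.05.

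**Figure D5:**
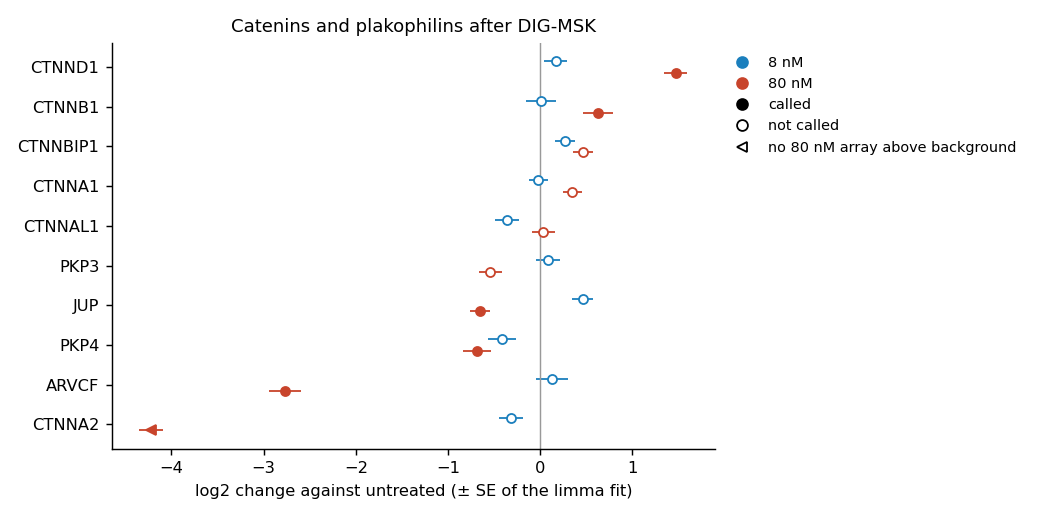
Log2 change of the 10 tested catenins and plakophilins at 8 nM (blue) and 80 nM (red) against untreated (x axis), with bars of ± 1 SE of the limma fit; filled symbols were called, and the triangle marks CTNNA2, which no 80 nM array measured above background. CTNND1 and CTNNB1 lie to the right at 80 nM, and JUP, PKP4, ARVCF and CTNNA2 to the left.

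Of the other genes of the cadherin superfamily, 11 of 25 were tested, 1 was called higher at 80 nM and 3 lower. FAT1, a giant cadherin, rose 2.55-fold, from between 459% and 601% to between 1345% and 1429.8%. The desmosomal cadherins DSC1 and DSC2 were above background on no 80 nM array and at least 8.55-fold and 2.87-fold lower than in untreated cells. CELSR1, a planar polarity cadherin, fell 1.98-fold. Of the proteases and junction linkers, 7 of 17 tested genes rose at 80 nM and 1 fell, MMP3 (stromelysin, which can cleave E-cadherin) rising 7.87-fold and IQGAP1 2.02-fold. CTNND1 stood in this list as well as in that of the catenins, and its rise was counted in both.

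The transcription factors that set epithelial or mesenchymal states include repressors of CDH1. Of these 16 genes 11 were tested, 2 were called higher and 4 lower at 80 nM. SNAI2 (Slug) rose from 146%, 125% and 98.5% to 479%, 369% and 429%, 3.48-fold (adjusted p = 3.0e-05). ZEB2 was at 5.02%, 2.97% and 3.36% in untreated cells and above background on no 80 nM array, at least 2.10-fold lower. The probe used for ZEB2 was above background on no 8 nM array either, and had passed the filter only through the untreated group. At 8 nM, 2 of the 11 factors were called higher and 2 lower (18.2% each), where 3.72% and 1.48% of all genes were called. GRHL3 and SNAI3 rose at 8 nM, 5.10-fold and 4.18-fold, and were not called at 80 nM. Among regulators of clustered protocadherin chromatin, 1 of 18 rose and 4 fell at 80 nM. The cohesin subunit SMC1A fell 7.37-fold, the DNA methyltransferase DNMT3A 2.15-fold, and CTCF, which binds the clustered promoters, was at -0.21 ± 0.10 (adjusted p = 0.0897).

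The lists of cell type markers moved as follows at 80 nM. Of 12 tested mesenchymal and fibroblast markers of 14, 4 were called higher and 5 lower, CDH2 among the latter, while FN1 and CDH11 were above background on no array. The summed level of this list ranged from 30727% to 35681% in untreated cells, from 28823% to 33541% at 8 nM and from 43483% to 45026% at 80 nM, mostly vimentin. Of 9 tested epithelial markers of 13, 1 was higher (CLDN4) and 1 lower (EPCAM), and the summed levels were between 1305% and 1395%, between 1265% and 1399% and between 1358% and 1498%. CDH5 was the only tested one of 9 endothelial markers, and PECAM1 and KDR were above background on no array. Of 10 blood markers, 6 were tested and none was called at 80 nM against untreated (1 had an unadjusted p under 0.05). The part of these shifts in the changes of the cadherin genes was not tested.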

How the data were processed

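Total RNA of A2780 cells was labeled with Cy3 and hybridized to SurePrint G3 human arrays, 1 array per culture and 3 per group, and samples were grouped by their labels. The authors used Agilent Feature Extraction 10.7.3.1 to obtain the deposited processed intensity, which is background-corrected but not scaled between arrays. The authors also deposited log2 values per probe, close to the log2 of the median spot signal (r of at least 0.998 on each array), used as an alternative. Control spots and outlier spots were left out, spots of a probe were averaged, and the log2 of the 75th percentile of each array was subtracted. No gene probe was saturated. Probes that were well above background on each array of 1 group or more were kept (26637 probes), and a gene was read from its kept probe of highest mean level.

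Names came from RefSeq accessions through a table of GRCh38.p14 genes (26364 of 27902 accession probes named; 617 of 24632 NM_ probes had no name and could not be members). Promoter windows are from RefSeq on the same build. Tests were made with limma 3.58.1 in R 4.3.3 (lmFit, contrasts, eBayes) on all 9 arrays without a replicate block, and the script was checked on simulated data. The level of a gene with no array above background in a group was bounded, on each array of that group, by the higher of the lowest signal above background and the signal of its own probe. The precision is limited by the 3 arrays per group.

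Genes named with their levels were CDH1, CDH2, CDH3 and CDH11, up to 8 increases and 8 decreases at 80 nM, 5 and 5 at 8 nM and 3 and 3 between concentrations among called genes measured on all arrays of both groups, and those above background on no array of a group; from each other list, at most 4 called genes and 4 fixed catenins were taken. Others were named after their values were seen. The members and lists were chosen with earlier results of these data known. The alternatives were normexp background correction (offset 50), quantile, median and spike-in scaling (10 spike-in probes), the authors' log2 values, other filters, other rules for several probes, only the groups compared, a replicate block, other call rules and each array left out.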

Additional observations from a re-analysis of the deposited data

Results flagged for a closer look

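CDH3 and PCDHB9 differed in their response between the concentrations, by the direct test of 80 nM against 8 nM in limma with Benjamini-Hochberg adjustment. CDH3 was at 1.63 ± 0.17 (log2 change, SE) at 8 nM and at 0.69 ± 0.17 at 80 nM, a difference of -0.94 ± 0.17 (adjusted p = 0.0019), with all 3 arrays at 80 nM below all 3 at 8 nM. The difference of CDH3 was not called with normexp (-0.32, adjusted p = 0.0187) or with the authors' log2 values (-0.50, adjusted p = 0.0018), where it was under the fold limit. PCDHB9 was at 0.69 ± 0.15 at 8 nM and at 0.11 ± 0.15 at 80 nM, a difference of -0.58 ± 0.15 (adjusted p = 0.0102), again with 3 of 3 arrays lower, but the difference was not called without 8 nM replicate 2 or 3 or 80 nM replicate 1 or 3. Both contrasts share the untreated arrays, and the 80 nM arrays were on a slide of their own.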

How the results depend on the processing

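At 80 nM against untreated (8 higher, 11 lower), normexp gave 4 and 5, the authors' log2 values 4 and 7, and the spike-in scaling 2 higher (PCDHB14 and PCDHGA8). Over all genes, normexp called 2283 higher and 2371 lower at 80 nM, and the authors' values 2811 and 2808. At 80 nM against 8 nM (4 higher, 14 lower), normexp gave 6 lower, the authors' values 7 lower, the spike-in scaling 1 higher and no fold limit 10 higher. At 8 nM (2 higher, 0 lower), normexp gave 0 higher, while the spike-in scaling, the authors' values, no filter on dim probes and only the arrays compared gave 1 each (CDH3). No fold limit gave 5 higher and 2 lower. Leaving out each array gave 1 to 4 higher and 0 to 1 lower at 8 nM, 7 to 9 and 9 to 11 at 80 nM, and 4 to 5 and 12 to 14 between concentrations; the 8 nM count was 1 without untreated replicate 1 or 8 nM replicate 3, 3 without untreated replicate 2 or 8 nM replicate 1, and 4 without 8 nM replicate 2. The spike-in scaling moved the median of all genes at 80 nM from 0.08 to -0.20 and between concentrations from 0.11 to -0.25, and the calls of all genes from 3980 higher and 3472 lower to 1632 and 4591. The cause of these shifts was not tested.

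For the other lists together (2 higher and 3 lower at 8 nM, 12 and 16 at 80 nM, 9 and 16 between concentrations), no fold limit gave 5 higher at 8 nM, 26 lower at 80 nM, and 19 higher and 25 lower between concentrations. The spike-in scaling gave 0 lower at 8 nM, 5 higher and 25 lower at 80 nM, and 3 higher between concentrations. Normexp and no filter gave 1 lower each at 8 nM, and only probes above background on all 9 arrays gave 10 lower between concentrations.

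Log2 changes that turned sign were small and not past the threshold. At 8 nM, leaving out each array gave -0.21 to 0.0092 for CDH2, -0.14 to 0.26 for CDH6, -0.19 to 0.064 for CDH9, -0.056 to 0.017 for PCDH19, -0.15 to 0.41 for PCDHB16 and -0.13 to 0.10 for PCDHB8. CDH26 was at -0.045 with normexp and -0.028 with the authors' values, and CDH6 at -0.0044 with normexp. PCDH19 was at 0.015 with normexp, 0.035 with median and 0.072 with spike-in scaling, and PCDHB8 at 0.0073 with median and 0.045 with spike-in scaling. At 80 nM the spike-in scaling put PCDHA5 at -0.0048 and PCDHB9 at -0.17.

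The labels give the same replicate numbers to each group. Between untreated and 8 nM arrays, the deviations of same-numbered arrays correlated at r = 0.11, 0.095 and 0.15. Differently numbered arrays of these groups were at -0.12 to -0.0072. Same-numbered pairs with an 80 nM array were at -0.12 to 0.013. Whether the numbers mark paired cultures was not tested. With the replicate number as a block, 9 genes were higher and 10 lower at 80 nM, 3 higher at 8 nM, and 4 higher and 14 lower between concentrations. PCDHGC4 then lost its call at 80 nM, and PCDHB14 gained one at 8 nM.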

Other observations

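Several probes of the family gave a signal on a single array, at least 3 times that of the next array. CDH13 (T-cadherin) was at 54.0% on untreated replicate 2 and at no more than 0.976% on the other 8 arrays, from 2 spots per array. CDH4 (R-cadherin) was at 25.9% on 80 nM replicate 3 and at no more than 1.19% elsewhere, also from 2 spots. CDH8 and CDH20 were at 8.09% and 8.88% on untreated replicate 1 and under 1% elsewhere. PCDHB5 was at 10.5% on 80 nM replicate 2, PCDHGB4 at 24.0% on 80 nM replicate 3 and PCDHGB7 at 16.7% on 8 nM replicate 3. PCDH7, at 43.0% on untreated replicate 3, was the only tested gene of this kind.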
